A study of Homo sapiens with 12 samples.

Results

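The data describe 10 genes of the G2 and M phases of the cell cycle in RKO cells, a human colon cancer line, after 24 hours in low arginine. They are the cyclins CCNB1, CCNB2 and CCNA2, the kinases CDK1 and PLK1, the checkpoint and anaphase factors BUB1 and CDC20, and the chromosome and spindle proteins MKI67, TOP2A and KIF11. They were chosen by name as well-known mitotic genes, each through the Ensembl transcript listed for it. Earlier results of these data were known at that time, so counts of members called describe this list only. All 10 genes had 1 listed transcript in both tables, among 19686 transcripts of the RNA table and 19849 of the footprint table. Further transcripts of these genes were not looked for. Cells of both groups, labelled WT, were plated in full medium, washed and then kept in arginine-null DMEM with dialyzed serum, to which arginine was added back. Starved cells received 12.5 uM arginine and fed cells received 400 uM arginine. RNA-seq measured transcript levels. Ribosome profiling, in which RNA fragments protected by ribosomes are sequenced, measured ribosome occupancy. Each treatment had 3 libraries per assay, 12 in all, from 1 cell line, and the labels do not say whether the libraries came from separate cultures. The p-values set the gap between treatments against how far the libraries of a group lie apart, a spread estimated with help from all transcripts. That spread may be technical. The files pair identifiers with no gene names, so the epithelial identity of the cells was not checked against markers, and mitotic genes beyond these 10 are not analysed here.

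Entry into mitosis is driven by CDK1 bound to a B-type cyclin, while cyclin A acts with cyclin-dependent kinases through S and G2 phase. PLK1 helps to switch CDK1 on and builds the spindle, KIF11 pushes the spindle poles apart, and TOP2A untangles and compacts chromosomes. BUB1 holds anaphase back until chromosomes are attached, and CDC20 then activates the anaphase-promoting complex, which marks cyclin B for destruction. The RNAs of these genes rise toward mitosis in cycling cells. Many of their promoters carry a CCAAT box, bound by NF-Y, and a cell cycle genes homology region (CHR), bound by complexes that contain LIN54.

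The promoters of the 10 genes are shown as a description. Whether their motifs bear on the changes below was not tested. RefSeq windows of build GRCh38.p14, from 250 bases before to 50 bases after the annotated start, were matched by symbol for all 10 genes. CDK1 had 2 windows, so there were 11. TTTGAA or TTTAAA, the 2 CHR forms searched, stood on either strand in 8 of 10 genes (9 of 11 windows), against 24.0% of all 35116 windows. CCAAT stood on either strand in 10 of 10 genes (11 of 11 windows), against 34.6% of all windows. CTTGAA and TTCGAA were also searched, a choice made after CCNA2 and BUB1 had shown no match. With them 10 of 10 genes (11 of 11 windows) had a match, against 32.2% of all windows. A match is a description of the letters and not a mapped binding site. The 100 bases before the start are printed for 6 genes, with matches to CCAAT and to the 4 CHR forms in capitals and the gene's own strand read 5′ to 3′. They lie at chr5:69167050-69167149 (plus strand) for CCNB1, chr15:59105046-59105145 (plus) for CCNB2, chr4:121823884-121823983 (minus) for CCNA2, chr16:23678789-23678888 (plus) for PLK1, chr10:128126424-128126523 (minus) for MKI67 and chr10:92593030-92593129 (plus) for KIF11.
CCNB1: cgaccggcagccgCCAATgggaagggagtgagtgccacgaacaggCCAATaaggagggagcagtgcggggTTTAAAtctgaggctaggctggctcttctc
CCNB2: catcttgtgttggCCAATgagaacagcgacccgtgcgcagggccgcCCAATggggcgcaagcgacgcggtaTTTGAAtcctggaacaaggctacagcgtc
CCNA2: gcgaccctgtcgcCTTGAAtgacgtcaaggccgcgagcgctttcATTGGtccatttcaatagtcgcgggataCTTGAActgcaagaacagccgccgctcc
PLK1: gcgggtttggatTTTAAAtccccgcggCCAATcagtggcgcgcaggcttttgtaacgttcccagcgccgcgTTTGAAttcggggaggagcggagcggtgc
MKI67: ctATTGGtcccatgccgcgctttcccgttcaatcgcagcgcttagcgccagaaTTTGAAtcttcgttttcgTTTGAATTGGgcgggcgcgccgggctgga
KIF11: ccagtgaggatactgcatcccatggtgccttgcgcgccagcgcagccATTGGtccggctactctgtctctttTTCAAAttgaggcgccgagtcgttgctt

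In these 6 sequences a CHR form sat at nearly the same distance from the start, counted with −1 as the last base before it. It began at position −29 in CCNB2, PLK1 and MKI67, at −30 in CCNB1 and at −28 in CCNA2 and, on the opposite strand, in KIF11. Of the 10 genes, only the 6 printed had a form there, so the shared distance follows from which genes are printed. In CCNA2 that form is CTTGAA, which was added to the search after CCNA2 had shown no match. A CCAAT match began upstream of this CHR form at −55 in CCNB1, −54 in CCNB2, −56 in CCNA2, −53 in KIF11 and −73 in PLK1. In MKI67 the second CHR form shares 1 base with a CCAAT match on the opposite strand (the run TTTGAATTGG), and a further CCAAT match began at −98. In the 4 genes not printed, CCAAT began at −54 in BUB1, −53 in TOP2A and −55 in CDC20, and at −46 in the second CDK1 window. BUB1 had TTCGAA just after the start and TOP2A had CTTGAA at −18 on the opposite strand. CDC20 had its nearest CHR form, TTTGAA, at −65, upstream of that CCAAT match. CDK1 had CHR forms at −161 and −131 in the first window, and at −69, −13 and, on the opposite strand, just after the start in the second. Within 100 bases before to 50 after the start, 7 of 10 genes (7 of 11 windows) had TTTGAA or TTTAAA, against 11.2% of all windows.

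**Figure D1:**
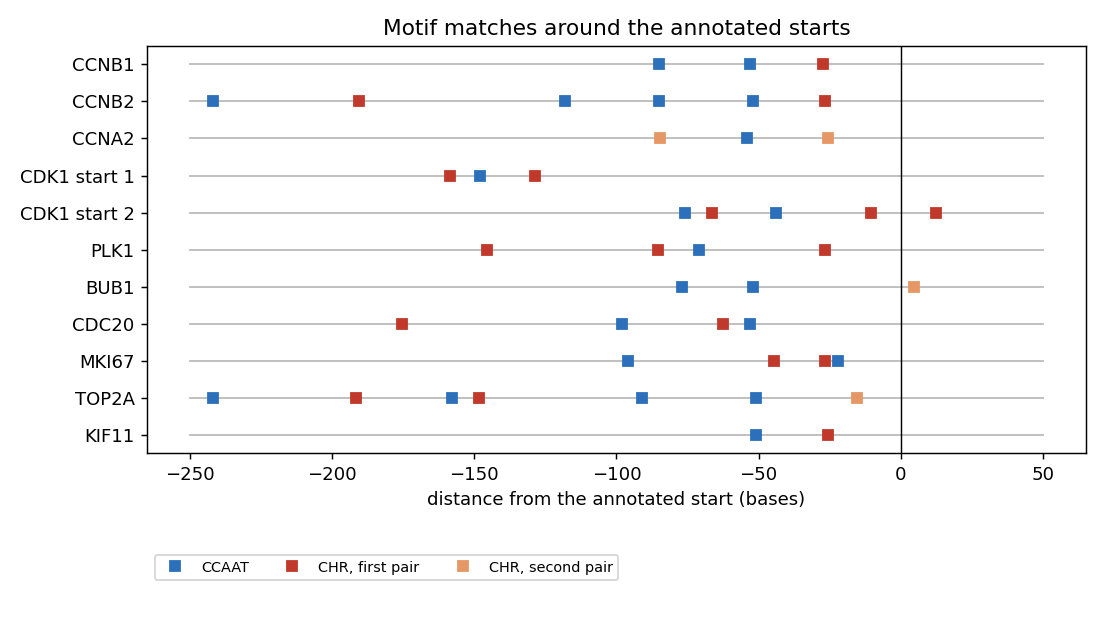
Motif matches in the RefSeq promoter windows of the 10 genes, with distance from the annotated start in bases on the horizontal axis and 1 line per window. Blue squares mark CCAAT, red squares TTTGAA or TTTAAA and orange squares CTTGAA or TTCGAA on either strand. A CHR form lies close to the start in most windows, with exceptions in CDC20 and the first CDK1 window.

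RNA totals ranged from 4670881 to 7967215 counts per library and footprint totals from 2063952 to 4364383. Member transcripts had 113 to 814 counts per starved RNA library and 294 to 4729 per fed RNA library. In footprints they had 51 to 259 counts per starved library and 161 to 1227 per fed library. All 10 passed the filter on low counts in both assays. Values below are CPM (counts scaled to library size), adjusted with TMM factors, and fold changes are starved over fed from edgeR's quasi-likelihood test. Each change is relative to the rest of the transcriptome in that assay. CPM is not divided by transcript length, so levels are compared between libraries and not between genes. The RNA kit named in the labels does not mark strand. The gene table shows CCNA2 overlapping EXOSC9 and PLK1 overlapping ERN2, and lists the pseudogenes CCNB2P1, BUB1P1, MKI67P1 and CDC20P1, so reads shared with these copies or neighbours could not be separated for these genes.

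RNA and ribosome footprints of all 10 mitotic genes fell in arginine-starved cells. In RNA, 10 of 10 were called lower (adjusted p under 0.05, edgeR with Benjamini-Hochberg adjustment over all transcripts), against 34.1% of the 11572 transcripts tested, and 10 of 10 were called lower with an estimate beyond 2-fold, against 8.74%. In footprints, 10 of 10 were called lower, against 20.9% of 13457 transcripts, and 10 of 10 were called lower with an estimate beyond 2-fold, against 7.49%. No test against a 2-fold change was run, and the footprint estimate of BUB1 lay within 1 SE of it. The members' median log2 fold change was −1.42 in RNA and −1.81 in footprints, beside −0.01 and 0.05 over all transcripts tested. Every starved library lay below every fed library for 10 of 10 genes in each assay, against 34.8% of transcripts tested in RNA and 26.4% in footprints. Together the 10 transcripts took 0.0474 ± 0.00285% of RNA counts in starved libraries and 0.178 ± 0.00533% in fed libraries (SD, n = 3 each). Their share of footprints was 0.0388 ± 0.00395% in starved and 0.146 ± 0.0136% in fed libraries (SD, n = 3 each). In these bulk libraries, fewer cells in G2 and M phase and less of each RNA per cell cannot be told apart.

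**Figure D2:**
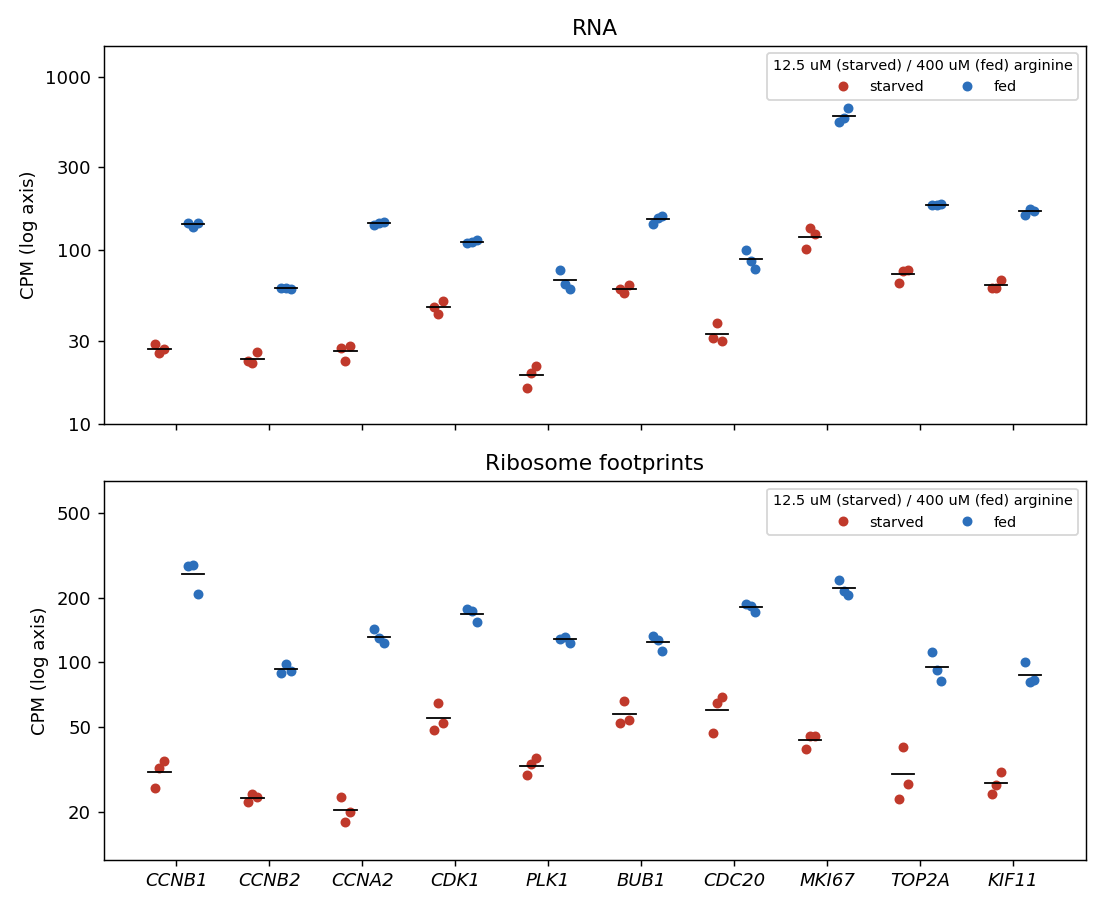
Level of each gene in every library, in TMM-scaled CPM on a log axis, for RNA (top) and ribosome footprints (bottom). Red points are starved libraries (12.5 uM arginine), blue points are fed libraries (400 uM), and black bars are means of 3. In each gene and assay the 3 starved points lie below the 3 fed points.

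CCNB1 and CCNA2 had the most negative changes of the cyclins and CDK1, while CCNB2 and CDK1 differed in RNA by no more than their errors. RNA of CCNB1 (ENST00000256442), the main mitotic B-type cyclin, stood at 28.9, 25.7 and 27.2 CPM in starved replicates 1 to 3 and at 144, 136 and 144 CPM in fed replicates 1 to 3. Its footprints stood at 25.9, 32.0 and 34.5 CPM in starved libraries and at 281, 283 and 209 CPM in fed libraries. Fed footprint replicate 3 was the lowest of its group and still far above the highest starved library. The log2 fold change of CCNB1 was −2.37 in RNA (SE 0.08, edgeR adjusted p = 5.46e-35) and −3.05 in footprints (SE 0.17, edgeR adjusted p = 2.26e-07). The footprint change ranked 8 of 13457 from the most negative, and the RNA change 95 of 11572.

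CCNA2 (ENST00000274026) encodes cyclin A2. Its RNA was 27.3, 23.2 and 28.1 CPM in starved libraries and 140.5, 144 and 146 CPM in fed libraries. Its footprints were 23.4, 17.9 and 19.9 CPM in starved libraries and 143, 129.7 and 123 CPM in fed libraries. Both groups were tight in RNA and far apart. CCNA2 had the most negative RNA change of the 10 genes, −2.45 on the log2 scale with SE 0.09 (edgeR adjusted p = 2.30e-35), with −2.69 in footprints (SE 0.15, edgeR adjusted p = 2.31e-07).

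CCNB2 (ENST00000288207), the second B-type cyclin, had a smaller RNA change than CCNB1. Its RNA was 23.0, 22.4 and 26.0 CPM in starved libraries and 61.2, 60.4 and 60.3 CPM in fed libraries. Its footprints were 22.2, 24.3 and 23.6 CPM in starved libraries and 89.0, 98.7 and 91.3 CPM in fed libraries. The groups did not overlap in either assay. CCNB2 changed by −1.35 (log2) in RNA (SE 0.10, edgeR adjusted p = 9.31e-20) and −1.98 in footprints (SE 0.14, edgeR adjusted p = 7.93e-07).

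CDK1 (ENST00000395284), the kinase that these cyclins activate, had the smallest RNA change of the 10. Its RNA was 47.3, 42.8 and 51.0 CPM in starved libraries and 111, 112 and 114 CPM in fed libraries. Its footprints were 48.5, 64.4 and 52.1 CPM in starved libraries and 177, 173 and 154 CPM in fed libraries. The starved footprint libraries varied more than the starved RNA libraries and stayed below all fed ones. On the log2 scale CDK1 changed by −1.25 in RNA (SE 0.08, edgeR adjusted p = 5.99e-22) and −1.61 in footprints (SE 0.14, edgeR adjusted p = 4.42e-06).

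PLK1 (ENST00000300093), a kinase of mitotic entry and spindle assembly, had the fourth most negative RNA change of the 10. Its RNA was 16.2, 19.6 and 21.8 CPM in starved libraries and 77.6, 64.5 and 59.9 CPM in fed libraries. Its footprints were 29.7, 33.4 and 35.6 CPM in starved libraries and 129, 131 and 124 CPM in fed libraries. Fed RNA replicate 1 was the highest of its group, while the fed footprint libraries were close together. PLK1 changed by −1.82 (log2) in RNA (SE 0.11, edgeR adjusted p = 6.96e-24) and −1.95 in footprints (SE 0.13, edgeR adjusted p = 7.23e-07).

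BUB1 (ENST00000302759), the kinetochore kinase of the spindle checkpoint, had the smallest footprint change of the 10. Its RNA was 59.9, 57.2 and 63.0 CPM in starved libraries and 141, 153 and 158 CPM in fed libraries. Its footprints were 52.3, 66.1 and 53.7 CPM in starved libraries and 133, 127 and 113 CPM in fed libraries. Starved footprint replicate 2 was the highest of its group and remained below the fed libraries. On the log2 scale BUB1 changed by −1.33 in RNA (SE 0.08, edgeR adjusted p = 2.71e-24) and −1.11 in footprints (SE 0.14, edgeR adjusted p = 6.46e-05).

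CDC20 (ENST00000310955), the activator of the anaphase-promoting complex, fell in both assays with widely separated groups. Its RNA was 31.3, 38.2 and 30.2 CPM in starved libraries and 101, 87.3 and 78.5 CPM in fed libraries. Its footprints were 46.9, 64.7 and 68.8 CPM in starved libraries and 186, 183 and 172 CPM in fed libraries. Starved footprint replicate 1 was the lowest of its group. CDC20 changed by −1.43 (log2) in RNA (SE 0.09, edgeR adjusted p = 1.67e-21) and −1.57 in footprints (SE 0.15, edgeR adjusted p = 8.77e-06).

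Among the chromosome and spindle proteins, MKI67 (ENST00000368654) had the most negative changes. It encodes Ki-67, the proliferation marker that coats mitotic chromosomes. Its RNA was 102, 134 and 124 CPM in starved libraries and 551, 579 and 657 CPM in fed libraries. Its footprints were 39.3, 45.4 and 45.4 CPM in starved libraries and 243, 216 and 206 CPM in fed libraries. The highest starved library was far below the lowest fed library in both assays. RNA was 4.98-fold lower and footprints 5.08-fold lower in starved cells, log2 fold changes of −2.32 (SE 0.08, edgeR adjusted p = 1.03e-35) and −2.35 (SE 0.13, edgeR adjusted p = 2.90e-07).

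TOP2A (ENST00000423485), the topoisomerase of chromosome condensation and separation, had RNA of 65.2, 76.6 and 77.4 CPM in starved libraries and 182, 182 and 185 CPM in fed libraries. Its footprints were 23.0, 40.5 and 27.1 CPM in starved libraries and 112, 91.7 and 82.2 CPM in fed libraries. Starved footprint replicate 2 stood above the other two, and the groups did not overlap. On the log2 scale TOP2A changed by −1.33 in RNA (SE 0.07, edgeR adjusted p = 8.73e-25) and −1.66 in footprints (SE 0.20, edgeR adjusted p = 4.85e-05).

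KIF11 (ENST00000260731), the kinesin that separates the spindle poles, had RNA of 60.9, 60.4 and 67.8 CPM in starved libraries and 160.3, 174 and 169 CPM in fed libraries. Its footprints were 24.3, 26.7 and 30.8 CPM in starved libraries and 99.99, 80.6 and 82.6 CPM in fed libraries. The spread within each group was small beside the gap between them. KIF11 changed by −1.41 (log2) in RNA (SE 0.08, edgeR adjusted p = 6.95e-26) and −1.68 in footprints (SE 0.15, edgeR adjusted p = 5.69e-06).

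The 10 RNA changes differed in size. CCNA2, CCNB1 and MKI67 had log2 fold changes between −2.45 and −2.32, which ranked 83, 95 and 108 of 11572 from the most negative. PLK1 followed at −1.82, and the remaining genes lay between −1.43 and −1.25, where the standard errors of 0.07 to 0.10 do not separate neighbours. In footprints CCNB1, CCNA2 and MKI67 again had the most negative values and ranked 8, 19 and 37 of 13457. Differences between genes were not tested.

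**Figure D3:**
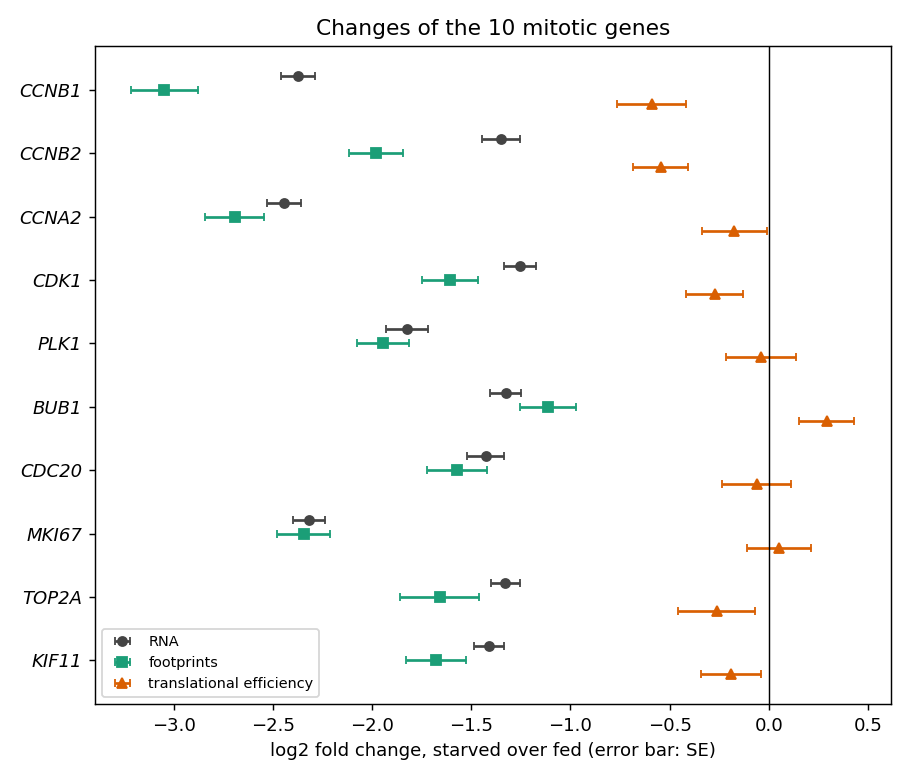
Log2 fold change, starved over fed, of the 10 genes in RNA (circles), footprints (squares) and translational efficiency (triangles), with standard errors as bars. RNA and footprint changes are all below −1, while efficiency changes lie between −0.59 and 0.29.

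Translational efficiency, meaning footprints per unit of RNA, was called lower for 2 of 10 genes, CCNB1 and CCNB2, against 11.7% of 11027 transcripts, so the share is near the background. It was called higher for 0 of 10, against 11.1%. The test was the assay-by-treatment interaction of 1 edgeR model over all 12 libraries. That model estimated 1 spread per transcript over RNA and footprint libraries together, so a difference in spread between assays is not modelled. The log2 change in efficiency was −0.55 for CCNB2 (SE 0.14, adjusted p = 0.00845 in edgeR) and −0.59 for CCNB1 (SE 0.17, adjusted p = 0.0185 in edgeR). With library totals in place of TMM factors CCNB1 had −0.49 (edgeR adjusted p = 0.0510) and was not called. The split over all transcripts depended on scaling, with 1227 called higher and 1292 lower with TMM factors, and 1567 and 803 with library totals. At an unadjusted p under 0.05, 3 of 10 genes passed, the third being BUB1, whose estimate was higher in starved cells. The share of all transcripts passing at that threshold was not computed. It is no smaller than the 2519 of 11027 called at adjusted p under 0.05, since each of these also passes unadjusted. The 3 of 10 is therefore not read as a result about these genes.

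Efficiency of the other 8 genes did not pass the test. BUB1 had a log2 efficiency change of 0.29 (SE 0.14, unadjusted p = 0.0495, edgeR adjusted p = 0.141). CDK1 had −0.27 (SE 0.14, edgeR adjusted p = 0.181), TOP2A −0.26 (SE 0.19, edgeR adjusted p = 0.354), KIF11 −0.19 (SE 0.15, edgeR adjusted p = 0.394) and CCNA2 −0.17 (SE 0.16, edgeR adjusted p = 0.478). Without starved footprint replicate 2, however, TOP2A was called lower, with −0.50 (edgeR adjusted p = 0.0465). CDC20, PLK1 and MKI67 had −0.06, −0.04 and 0.05, with standard errors of 0.17, 0.18 and 0.16. A p that misses the threshold does not show that efficiency was unchanged. Over all 10 genes the median was −0.18, beside −0.02 over all transcripts tested, a difference that was not tested. Whether the efficiency change of CCNB1 or CCNB2 differs from that of CDK1 or CCNA2 was not tested.

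**Figure D4:**
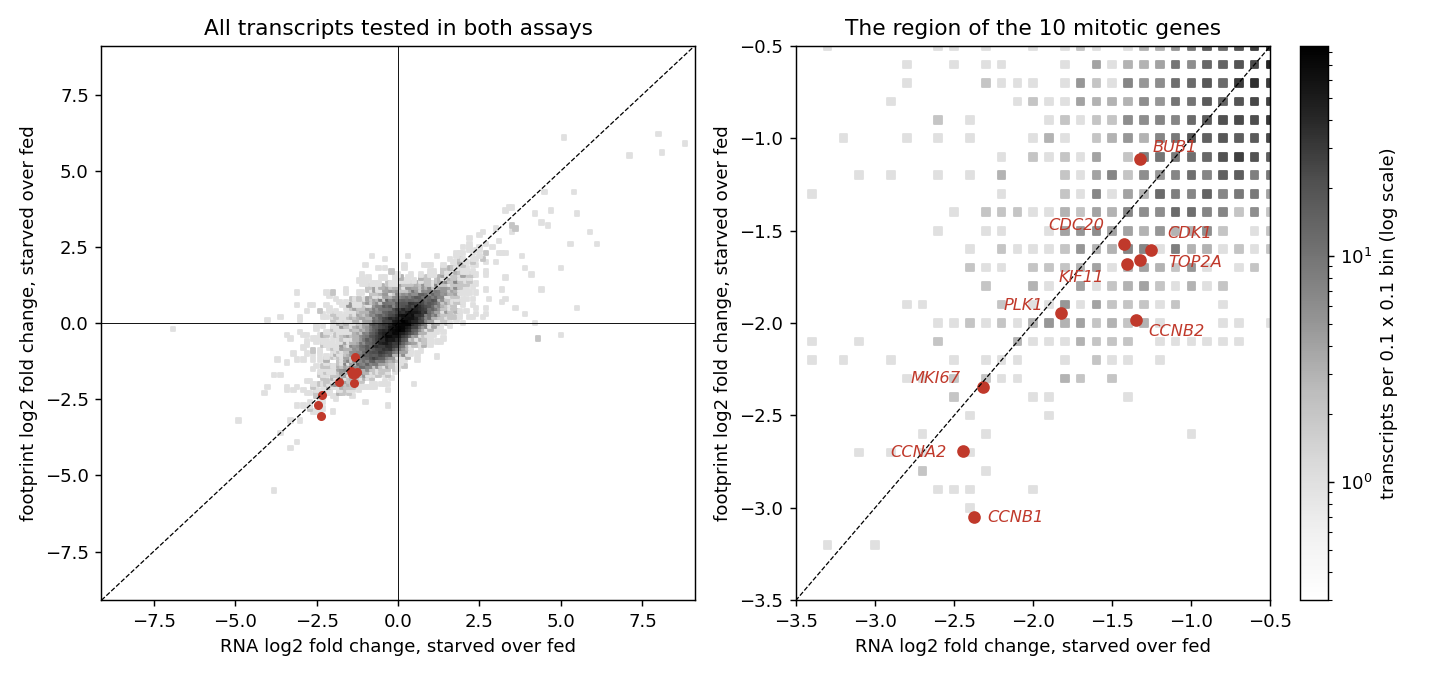
Footprint against RNA log2 fold change, starved over fed. Grey squares count the 11027 transcripts tested in both assays in bins, red points are the 10 genes and the dashed line marks equal change, with the region of the 10 genes enlarged at right. CCNB1 and CCNB2 lie below the line by more than the other genes, and BUB1 lies above it. Points come from the separate fit of each assay, while efficiency was scaled over transcripts kept in both. Distance from the line therefore differs somewhat from the efficiency change. MKI67 lies just below the line, though its efficiency estimate was 0.05.

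The ratio of footprints to RNA differed widely between the 10 genes in both treatments. It is given here as footprint CPM over RNA CPM, with TMM factors from the transcripts kept in both assays. Length cancels only where both assays count the same part of a transcript, and the counted part is not given in the sources used here. In starved cells the median over 11027 transcripts was 0.954, and in fed cells it was 0.960. CDC20 had ratios of 1.98 in starved and 2.10 in fed cells, and PLK1 had 1.89 in starved and 1.96 in fed cells. Both stood high among all transcripts, at the 81.1 and 79.4 percentiles in starved cells and the 84.7 and 82.4 percentiles in fed cells. At the other end, MKI67 had 0.398 in starved and 0.384 in fed cells, TOP2A 0.453 and 0.537, and KIF11 0.475 and 0.541. These 3 chromosome and spindle genes lay at or below the 23.8 percentile in both treatments.

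The cyclins and CDK1 lay between these ends. CCNB1 had a ratio of 1.24 in starved cells and 1.88 in fed cells, and moved to the 62.4 percentile in starved cells, against 81.2 in fed cells. CCNB2 had 1.08 in starved and 1.58 in fed cells, at the 55.8 percentile in starved cells, against 74.2 in fed cells. CDK1 had 1.28 in starved and 1.54 in fed cells, CCNA2 had 0.860 in starved and 0.950 in fed cells, and BUB1 had 1.05 in starved and 0.851 in fed cells. The order of the genes is a description of these libraries, with no test between genes.

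**Figure D5:**
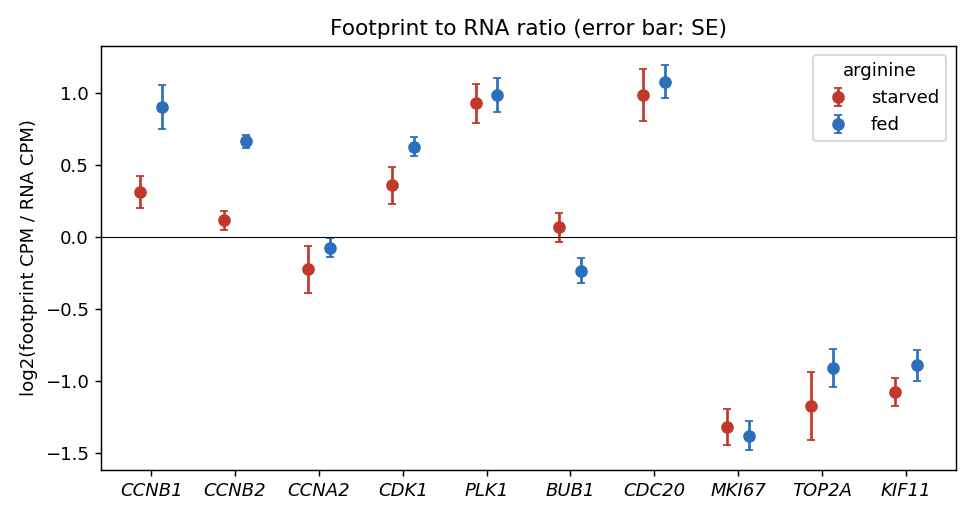
Log2 ratio of footprint CPM to RNA CPM for each gene in starved (red) and fed (blue) cells, with standard errors from 3 libraries per assay as bars. CCNB1 and CCNB2 show the widest gaps between treatments, and MKI67, TOP2A and KIF11 have the lowest ratios.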

How the data were processed

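RNA-seq and ribosome profiling libraries of RKO cells were compared between 12.5 uM and 400 uM arginine. The authors deposited 1 table per assay of raw whole-number counts, with a row for each Ensembl transcript. The tools named in the submitters' processing notes are UMI-tools, STAR, cutadapt and DESeq2, with the build GRCh38.p13. How reads were counted, over which part of a transcript and with which annotation is not given in the sources used here, so footprints outside coding sequences may be included. Per the labels' protocols, a TruSeq kit was used for RNA and RiboCop depleted ribosomal RNA.

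RNA and footprint tables were fitted separately with edgeR 4.0.16 under R 4.3.3, with TMM factors, filterByExpr and the two-sided quasi-likelihood test. P-values were adjusted by Benjamini-Hochberg over all transcripts tested and called under 0.05. Efficiency was the assay-by-treatment interaction, over transcripts that passed the filter in both tables, with TMM factors computed per assay. SE is the absolute log2 fold change divided by the square root of F. The code of the fits was run on simulated data in which few transcripts changed, and RNA did not change in the efficiency case. That run cannot judge the scaling here, where many transcripts changed. Over the 12 replicate pairs chi-square per degree of freedom was 2.07 to 7.73, and 0 pairs were identical. Alternatives were DESeq2 1.42.0, limma-voom (limma 3.58.1), other scaling, no filter, replicate blocks and leaving out each library. Gene names of the 10 transcripts come from the list that chose them, and all 10 are named. The members, motifs and tests were chosen with earlier results of these data known.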

Additional observations from a re-analysis of the deposited data

How the results depend on the processing

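The 10 RNA and the 10 footprint changes kept direction and call under each of the 12 alternatives tried per assay, 120 values in each. Efficiency had 19 alternatives, and 178 of 190 member values kept direction and side of the threshold. Library totals alone left 1 gene called lower in efficiency, CCNB2. Values near 0 changed sign: with library totals PLK1 had 0.058 and CDC20 0.036, and without a filter MKI67 had −0.047. With 1 library left out at a time, efficiency changes ranged from −0.174 to 0.055 for PLK1 and −0.175 to 0.051 for CDC20. The range was −0.071 to 0.131 for MKI67, −0.738 to −0.517 for CCNB1 and −0.607 to −0.486 for CCNB2. CCNB1 came close to the threshold, with edgeR adjusted p = 0.0494 without fed footprint replicate 1. In these fits 2 to 3 of the 10 genes were called lower. Over all transcripts the lowest count was 948 of 11036 and the highest 1316 of 11174. Library totals moved the median log2 fold change over all transcripts to −0.12 in RNA and 0.10 in footprints. The labels' replicate numbers were not taken as pairs. Deviations of same-numbered starved and fed libraries correlated at −0.01 to 0.10 in RNA and −0.21 to −0.03 in footprints. Differently numbered libraries gave −0.11 to 0.10 in RNA and −0.10 to 0.13 in footprints. Between RNA and footprint libraries of the same number the correlation was −0.01 to 0.13 in starved and −0.02 to 0.02 in fed cells. With the replicate block the transcripts called were 7956 in RNA, 4656 in footprints and 2306 in efficiency, against 7862, 5359 and 2519 without it. A replicate block of treatment and number over both assays called 2494 in efficiency, and the block changed no call of the 10 genes. Counts of 51 to 259 per starved footprint library limit the precision of the efficiency changes, and the causes of the changed calls were not tested.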
